A study of Caenorhabditis elegans with 8 samples.

Results

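The genes described here set the sexual fate of Caenorhabditis elegans and adjust the output of its X chromosomes: xol-1, sdc-1, sdc-2, her-1, tra-1, dpy-21, dpy-26, dpy-27, dpy-28 and dpy-30. They were found as the probe sets of the deposited intensity table whose annotated gene symbol is 1 of these names. All 10 genes had a probe set of their own, out of 17118 genes that did, and together they held 19 of the 22548 probe sets on the array. Each array, an Affymetrix C. elegans GeneChip, held RNA from 1 pool of nematodes, in a study of DNA repair across life stages.

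All 3 groups were of strain JK1107, which carries the glp-1 allele q224 on chromosome III. Embryos (3 arrays) were of mixed stages, released with bleach and sodium hydroxide from adults raised at 15°C, with 5000 per pool. Young adults (3 arrays) and aging adults (2 arrays) were raised from the first larval stage at 25°C, where germ cells of the mutant fail to proliferate, and were taken 1 day and 6 days into adulthood with 3000 to 5000 per pool. The parental temperature of 15°C was shared by all groups, whereas stage and rearing at 25°C cannot be told apart between embryos and adults. The adults are therefore a model of mostly somatic tissue, although some germ line markers were above noise in them. The labels give no sex. Nothing in the labels says that pools came from separate cultures, so p-values measure only the spread between these pools.

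In this species animals with a pair of X chromosomes become hermaphrodites and animals with a single X become males. Elements on the X and on autosomes set the level of xol-1, a switch gene whose product turns off sdc-2 in prospective males. In hermaphrodites SDC-2, with SDC-1 and other partners, both silences the male gene her-1 and loads the dosage compensation complex onto the X chromosomes, where it lowers transcription. The core of that complex is a condensin, a ring-shaped machine that compacts DNA.

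The 10 genes lie on 4 chromosomes of the WBcel235 annotation. On X lie xol-1 (C18A11.5, 8041313 to 8044409), sdc-1 (F52E10.1, 16275763 to 16282691) and sdc-2 (C35C5.1, 11522707 to 11533450). Chromosome III holds dpy-27 (R13G10.1, 3813644 to 3819679), dpy-28 (Y39A1B.3, 10763131 to 10777076) and tra-1 (Y47D3A.6, 11170890 to 11195201). Chromosome IV holds dpy-26 (C25G4.5, 12445801 to 12451335), and chromosome V holds her-1 (ZK287.8, 9697015 to 9702035), dpy-30 (ZK863.6, 12191519 to 12192177) and dpy-21 (Y59A8B.1, 17936282 to 17949193).

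Intensities are in arbitrary units after background subtraction, so that a dim probe set can be below 0. The noise level of an array was the absolute value that 95% of its negative readings did not exceed, which lay between 24.4 and 27.7 for embryos, between 28.7 and 35.0 for young adults, and between 29.5 and 33.8 for aging adults. The median intensity was 56.2 to 64.2, 19.1 to 21.9 and 32.4 to 36.9 in the same order, so that the median of the young adult arrays was itself below noise. Arrays of 1 group correlated at a Spearman rho of 0.917 to 0.976 over all probe sets. Fold changes below are on the log2 scale after division by the array median, with values under 0.01 set to 0.01. Where a fitted value rests on intensities below noise, the fold is given with each such value raised to its array's noise level. An adjusted p beside such a fold comes from the fit without this raising, so it does not test the printed fold.

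In embryos against young adults, 6 of the 10 genes were higher and 0 were lower by limma with Benjamini-Hochberg adjustment at 0.05, while 22.5% of all 17118 genes were called higher and 31.2% lower. The 6 were xol-1, sdc-1, sdc-2, dpy-21, dpy-26 and dpy-27. In embryos against aging adults 7 were higher and 0 lower, beside 17.8% and 27.1% of all genes. The 7 were xol-1, sdc-1, sdc-2, her-1, dpy-26, dpy-27 and dpy-28, and the count was 3 without embryo replicate 1 or 2 and 4 without embryo replicate 3 or aging adult replicate 2. In aging adults against young adults 0 were called in either direction, beside 2.74% higher and 4.44% lower among all genes, and 0 of the 10 had an unadjusted p below 0.05. Over all genes in embryos against young adults, 3849 were higher and 5337 lower with the array median, 4063 and 4268 after quantile normalization, and 6627 and 2167 with no rescaling. The 3 comparisons share arrays, so they are not independent of each other.

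Markers of other cells also differed between the groups, not all in the same direction. A marker was counted as above noise where any of its probe sets was. Of all probe sets, 59% to 61% were above noise on embryo arrays, 41% to 45% on young adult arrays and 51% on aging adult arrays. Of 15 germ line markers, 15 were above noise on each embryo array, 1 to 2 on young adult arrays and 4 to 5 on those of aging adults, and their summed intensity was 6456 to 8396, 247 to 343 and 675 to 724. Of 6 embryo markers measured, 4 to 5 were above noise in embryos and 1 to 2 in either adult group, and of 5 yolk protein genes measured, 0 to 1 in embryos and 5 in adults. By the test, 3 of the 6 embryo markers were higher and 1 lower in embryos than in young adults, beside 22.5% and 31.2% of all genes. Against aging adults 1 was higher and 1 lower, beside 17.8% and 27.1%. The lower gene was med-1 in both comparisons. The germ granule gene pgl-1 and the oocyte maturation gene oma-1 were below noise on all adult arrays. Other markers of that list were not: cgh-1 was above noise on all adult arrays, and glh-1, oma-2 and mex-3 on both aging adult arrays. The marker nos-2 was above noise on 2 young adult arrays. Of 8 sperm markers measured, 1 to 2 were above noise in embryos, 2 to 4 in young adults and 2 in aging adults, and male neuron markers were above noise for 0 to 1 of 7 genes on any array. In whole-animal pools, fewer cells of a type and less RNA per cell cannot be told apart, and the part of the germ line and embryo markers in the results on the 10 genes was not tested.

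The median log2 fold change of the 10 genes was 3.53 in embryos against young adults, 2.19 in embryos against aging adults and 0.14 in aging against young adults. Over all genes it was -0.38, -0.45 and -0.01. With values below noise raised to it, the medians of the 10 genes were 0.82, 1.10 and -0.47 and those of all genes -1.85, -1.12 and -0.73. The second set of medians takes its shift from the noise level, which stood at 0.390 to 0.439 of the median on embryo arrays, 1.38 to 1.68 on young adult arrays and 0.911 to 0.917 on aging adult arrays. A gene below noise in both groups takes exactly the shift of all genes under that treatment.

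**Figure D1:**
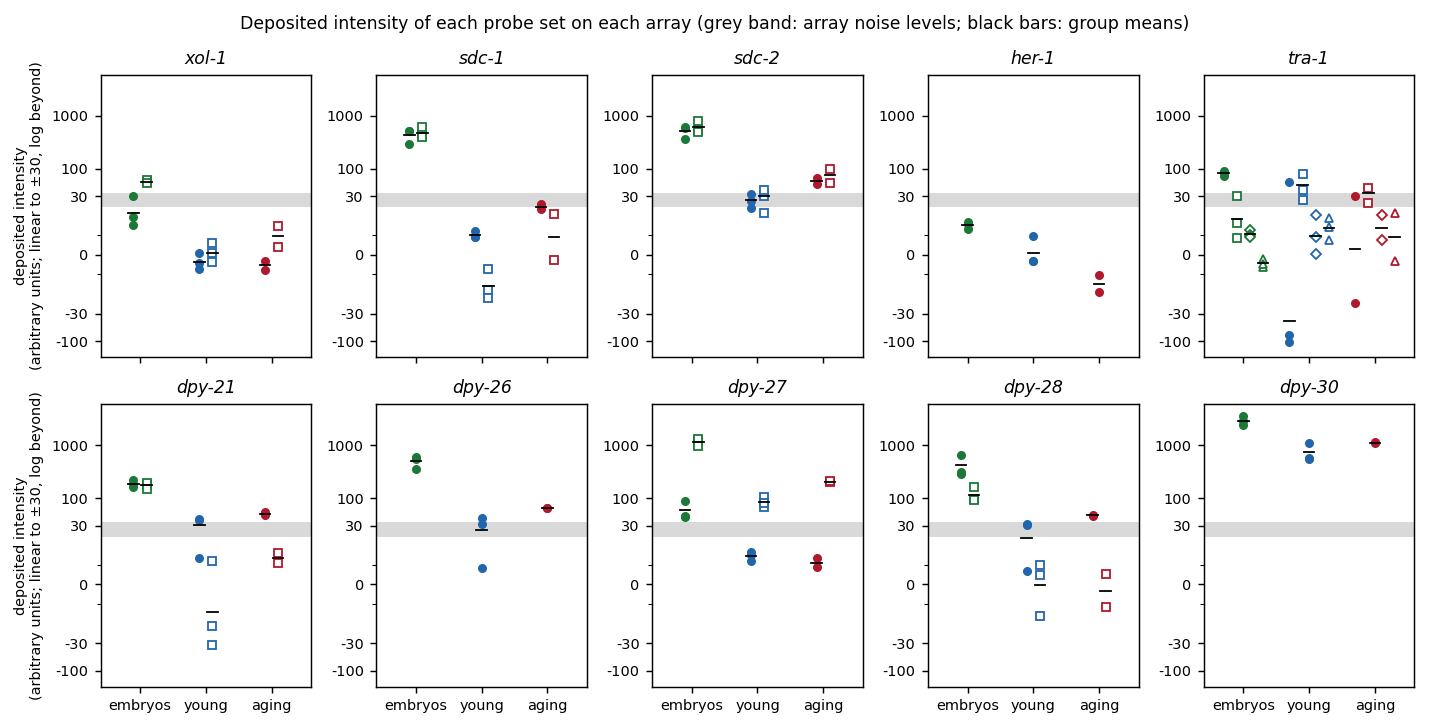
Deposited intensity (arbitrary units, linear near 0 and logarithmic beyond) of the 19 probe sets of the 10 genes on each of 8 arrays, with a marker shape for each probe set, black bars for group means and a grey band for the noise levels of the arrays. All embryo points of sdc-1, sdc-2, dpy-21, dpy-26, dpy-27, dpy-28 and dpy-30 stand above the band, while her-1 stays below it on every array.

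The switch gene xol-1, whose product is related to small-molecule kinases and promotes male fate, was dim but measurable in embryos. Probe set 188135_s_at read 55.7, 61.6 and 52.9 on the embryo arrays, 5.85, 1.16 and -3.51 in young adults, and 14.7 and 4.17 in aging adults. The embryo values were all above noise and the adult values all below it, with no overlap. Probe set 188134_at read 30.5, 19.2 and 15.2 in embryos, -4.40, -7.15 and 0.705 in young adults, and -7.92 and -2.90 in aging adults, and only the first embryo array was above noise. The log2 fold change was 6.48 ± 1.07 (SE, adjusted p = 0.00203, limma) against young adults and 6.12 ± 1.20 (adjusted p = 0.00607) against aging adults, but 5 of its 16 values were under the 0.01 floor. No lower bound on the fold could be given: with noise-level values in the adults the log2 fold change was -1.23 and -0.50. With the probe set of the highest mean alone neither call stood (adjusted p = 0.0794 and 0.559). In deposited units embryos were higher, yet relative to the array median the embryo level of xol-1, 0.574 ± 0.144 (SD, n = 3), was below the noise level of the adult arrays.

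Both sdc genes were higher in embryos than in either adult group. For sdc-1, which encodes a zinc finger protein acting with SDC-2, probe set 174953_s_at read 503, 507 and 296 in embryos, 9.22, 11.9 and 9.06 in young adults, and 25.9 and 23.4 in aging adults. Probe set 193642_at read 447, 599 and 389 in embryos, -7.37, -18.0 and -22.1 in young adults, and -2.45 and 20.8 in aging adults. On both probe sets every embryo array was above noise and no adult array was. The level was at least 4.84-fold higher in embryos than in young adults (adjusted p = 0.00137, limma) and at least 8.01-fold higher than in aging adults (adjusted p = 0.0151), with the adults at noise. Without embryo replicate 1 or 2 the second adjusted p was 0.0503 or 0.0502.

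For sdc-2, which encodes the large protein that brings the complex to X in hermaphrodites, probe set 173447_s_at read 586, 604 and 364 in embryos, 27.4, 32.7 and 23.7 in young adults, and 65.1 and 50.5 in aging adults. Probe set 175632_at read 531, 794 and 497 in embryos, 21.6, 30.1 and 38.6 in young adults, and 96.5 and 53.4 in aging adults. The order was embryos, aging adults, young adults on both probe sets with no overlap, although 5 of the 6 young adult values were below noise. Of the 10 genes, sdc-2 had 1 of the narrowest errors: the log2 fold change was 2.70 ± 0.22 (SE, adjusted p = 8.73e-05, 6.51-fold) against young adults and 2.28 ± 0.25 (adjusted p = 0.000438, 4.85-fold) against aging adults. With the young adult values raised to noise, the first fold was 5.71. Both calls stood under each of the 18 alternative settings and left-out arrays.

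The male ligand gene her-1, whose secreted product blocks the receptor TRA-2, was below noise on all 8 arrays. Probe set 191422_at read 15.7, 13.0 and 16.8 in embryos, 9.49, -2.96 and -3.14 in young adults, and -10.2 and -19.2 in aging adults. Embryos lay above aging adults without overlap, and the fit called that difference (adjusted p = 0.0369, limma), but both groups were within the noise and no fold is given. The call ended without any 1 of the 3 embryo or 2 aging adult arrays and under a floor of 0.1 after scaling (adjusted p = 0.197). Against young adults the adjusted p was 0.120, and 0.000547 without young adult replicate 1.

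The gene at the end of the cascade, tra-1, encodes a GLI-family zinc finger protein that directs hermaphrodite fates in the soma, and its 4 probe sets did not move together. Probe set 175621_at read 73.6, 91.3 and 83.2 in embryos, -76.3, -103 and 55.5 in young adults, and 30.3 and -24.7 in aging adults. Here the embryos were above noise and the adults ranged widely on both sides of 0. Probe set 175693_at ran the other way, with 8.54, 16.3 and 30.4 in embryos, 28, 38.8 and 77.5 in young adults, and 43.0 and 26.6 in aging adults, and the groups overlapped in these units. Probe set 175694_s_at lay between 0.189 and 20.3 and 188843_s_at between -6.40 and 21.3, both below noise on all 8 arrays.

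As a gene, tra-1 passed in no comparison: the log2 fold change was -1.91 ± 1.53 (SE, adjusted p = 0.326, limma) in embryos against young adults, 1.49 ± 1.71 (adjusted p = 0.523) against aging adults and -3.40 ± 1.71 (adjusted p = 0.287) in aging against young adults. Without aging adult replicate 2 the first passed (adjusted p = 0.0280), and without replicate 1 the others did, at 4.66 (adjusted p = 0.0138) and -6.57 (adjusted p = 0.0188). Either fit leaves 1 aging adult array, assumed to vary like the other groups, and the values of replicate 2 include floored ones. In a fit of single probe sets, in which 53.1% of all probe sets were called in either direction in embryos against young adults, 2 of the 4 were lower in embryos. These were 175693_at, at -3.0 ± 0.55 (adjusted p = 0.00326), and 188843_s_at, whose values were all below noise. The estimate for 175621_at was 7.30 ± 4.12 (adjusted p = 0.177). The sign of tra-1 thus depended on the probe set, and no single level of the gene is given.

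The condensin subunit genes of the complex were above noise on every embryo array and lower in adults in deposited units. For dpy-27, the SMC4-like ATPase found only in the dosage compensation condensin, probe set 188603_s_at read 1197, 1329 and 988 in embryos, 68.2, 105 and 80.0 in young adults, and 199 and 209 in aging adults. It was above noise on all 8 arrays, with the groups in the order embryos, aging adults, young adults and no overlap. Probe set 171990_x_at read 44.4, 89.2 and 45.9 in embryos, 15.2, 11.9 and 16.7 in young adults, and 13.4 and 9.03 in aging adults, so that only the embryos were above noise.

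The log2 fold change of dpy-27 was 1.33 ± 0.20 (SE, adjusted p = 0.00126, limma, 2.51-fold) in embryos against young adults and 1.62 ± 0.22 (adjusted p = 0.00119, 3.08-fold) against aging adults. These are medians over a probe set measured in adults and one below noise there, and with the latter's values raised to noise the folds were 1.71 and 1.82. On 188603_s_at alone the log2 fold change was 2.24 ± 0.19 (adjusted p = 0.000104) and 1.70 ± 0.22 (adjusted p = 0.000885). On 171990_x_at it was 0.41 ± 0.40 (adjusted p = 0.422) and 1.55 ± 0.44 (adjusted p = 0.0293). Both calls on the gene stood in the 17 alternative settings and left-out arrays that gave a value.

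The kleisin subunit gene dpy-26, which closes the condensin ring, had 1 probe set, 188069_s_at. It read 548, 588 and 362 in embryos, 32.6, 42.2 and 8.37 in young adults, and 64.9 and 64.2 in aging adults. Every embryo array was above every adult array, and the third young adult array was the only one below noise. The level was 7.32-fold higher in embryos than in young adults (log2 fold change 2.87 ± 0.63 SE, adjusted p = 0.00732, limma) and 4.78-fold with that value raised to noise. Against aging adults it was 4.30-fold higher (2.11 ± 0.70, adjusted p = 0.0461), a call that stood in 8 of the 17 alternative settings and left-out arrays with a value.

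For dpy-28, which encodes a HEAT-repeat subunit, probe set 174642_at read 318, 669 and 286 in embryos, 6.78, 31 and 33.0 in young adults, and 48.9 and 45.7 in aging adults. Probe set 181269_at read 94.6, 161 and 90.4 in embryos, 10.2, -16.2 and 4.79 in young adults, and 5.20 and -11.7 in aging adults. On both, all embryo arrays were above noise and above all adult arrays. The fitted log2 fold change was 4.19 ± 1.51 (SE, adjusted p = 0.0523, limma) against young adults, just outside the threshold and past it in 10 of 18 alternative settings and left-out arrays, and 5.18 ± 1.69 (adjusted p = 0.0431) against aging adults, just inside it. With dim values raised to noise, which removes spread between the pools, the folds were 2.24 and 3.08. On 174642_at alone both differences passed, at 2.80 ± 0.61 (adjusted p = 0.00747) and 2.24 ± 0.69 (adjusted p = 0.0346). For the gene as a whole, the difference from aging adults passed in 10 of 18 alternative settings and left-out arrays. In the fit of single probe sets, 44.3% of all were called in embryos against aging adults.

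The chromatin genes dpy-21 and dpy-30 also encode parts of the complex outside the condensin core. For dpy-21, an enzyme that removes a methyl group from histone H4 on the X chromosomes, probe set 171726_x_at read 183, 216 and 161 in embryos, 13.5, 39.1 and 40.8 in young adults, and 47.0 and 55.3 in aging adults. Probe set 182830_at read 179, 190 and 152 in embryos, -21, -32.9 and 12.2 in young adults, and 11 and 15.9 in aging adults, so that this probe set was below noise on every adult array. The groups of embryos and adults did not overlap on either.

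The fitted log2 fold change of dpy-21 was 5.13 ± 1.43 (SE, adjusted p = 0.0206, limma) in embryos against young adults and 1.97 ± 1.60 (adjusted p = 0.361) against aging adults. With dim values raised to noise the folds were 1.81 and 2.54. That raising removes spread between the pools, so no p-value is given for these folds. The first call ended without any 1 of embryo replicates 1 to 3 or young adult replicates 1 and 2 (adjusted p = 0.0528 to 0.0626).

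The gene dpy-30 encodes a subunit shared by the dosage compensation complex and the COMPASS enzymes that methylate histone H3, and was far above noise on all 8 arrays. Probe set 191754_at read 2887, 3509 and 2418 in embryos, 539, 583 and 1118 in young adults, and 1147 and 1103 in aging adults. In these units embryos were above all adults, the third young adult array was close to the aging adults, and the other two young adult arrays were lowest. Relative to the array median the means were 48.2 ± 8.47 (SD, n = 3), 35.7 ± 13.3 (n = 3) and 32.6 ± 2.06 (n = 2), and embryos and young adults overlapped.

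The log2 fold change of dpy-30 was 0.48 (95% confidence interval -0.16 to 1.12, adjusted p = 0.177, limma) in embryos against young adults and 0.55 (-0.17 to 1.27, adjusted p = 0.184) against aging adults. This result turned on the scaling. Quantile normalization gave log2 fold changes of 1.94 (adjusted p = 0.000143) against young and 1.75 (adjusted p = 0.000438) against aging adults. With no rescaling they came to 2.04 (adjusted p = 0.00186) and 1.37 (adjusted p = 0.0210). Without rescaling the median of all genes itself was 1.19 and 0.37, and after quantile normalization it was -0.03 and 0. Leaving out young adult replicate 3 also brought both differences past the threshold (adjusted p = 0.0126 and 0.0440).

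**Figure D2:**
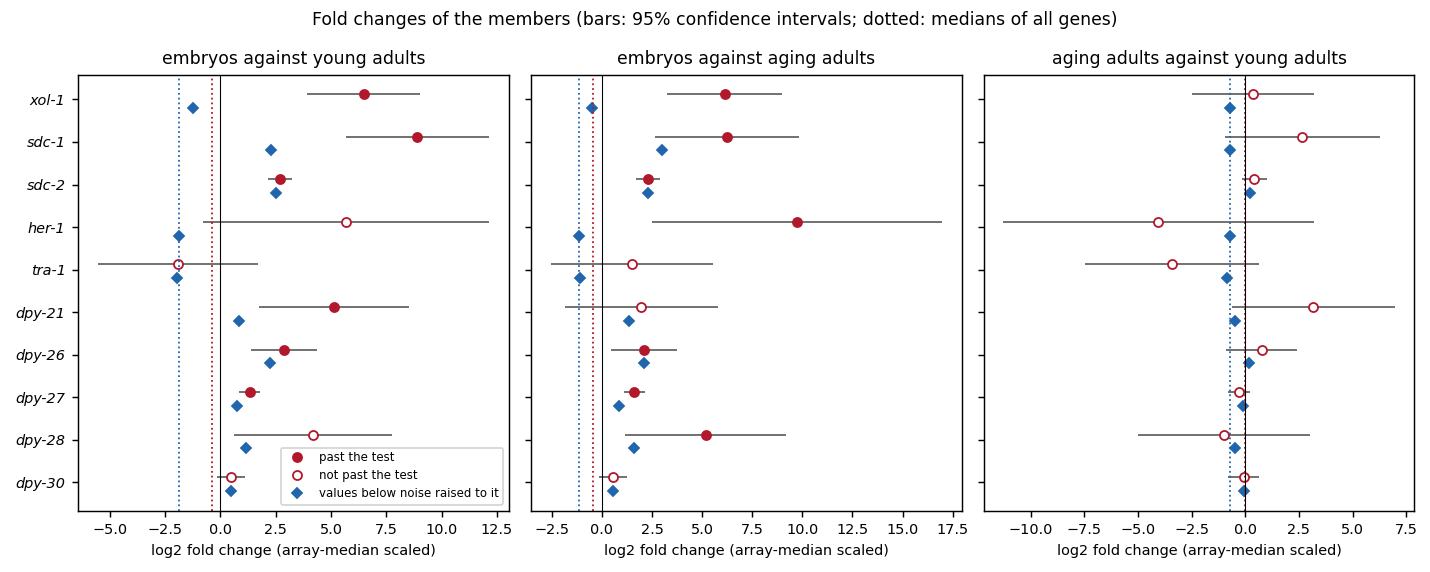
Log2 fold change of each gene in the 3 comparisons, as fitted (circles with 95% confidence intervals, filled where past the test) and with values below noise raised to it (blue diamonds); dotted lines are the medians of all genes, red as fitted and blue with raised values. The wide intervals belong to genes with floored values, and sdc-2 and dpy-27 have narrow ones.

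Between the adult ages, the deposited intensities of several members were higher at 6 days. For dpy-27 188603_s_at and for dpy-30, measured on all adult arrays, the ratio of aging to young adult means was 2.42 and 1.51. For the other probe sets above noise on both aging adult arrays, young adult values below noise were raised to it, and the ratio was then 1.85 and 2.20 for the probe sets 173447_s_at and 175632_at of sdc-2, 1.85 for dpy-26, 1.47 for dpy-28 174642_at and 1.41 for dpy-21 171726_x_at. All 3 young adult values were below noise for sdc-2 173447_s_at, 2 of 3 for sdc-2 175632_at and dpy-28 174642_at, and 1 of 3 for dpy-26 and dpy-21 171726_x_at. The opposite direction was seen for tra-1 175693_at, above noise on 2 young and 1 aging adult array, at 0.751. Over whole arrays, with no value raised, the median intensity was 1.68 times higher in aging adults and the mean intensity 1.18 times. The ratio of dpy-30 lay between these and that of dpy-27 188603_s_at above both. The raised ratios cannot be ranked against them. With no value raised, dpy-21 171726_x_at lay between them at 1.64. Above both were dpy-28 174642_at at 2.00, dpy-26 at 2.33, and sdc-2 at 2.07 (173447_s_at) and 2.49 (175632_at). Of the 15 germ line markers 3 were called higher at 6 days (glh-1, glh-4 and mex-3), beside 2.74% of all genes. The 1 called lower, him-3, beside 4.44% of all genes, was below noise at both ages. The 3 higher ones were below noise on all young adult arrays. With values raised to noise their log2 fold changes were 0.06, -0.61 and -0.10, beside a median of -0.73 over all genes. The part of these markers in the ratios above was not tested.

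After division by the array median none of these differences passed the test. The log2 fold change in aging against young adults was 0.42 (95% confidence interval -0.17 to 1.02, adjusted p = 0.372, limma) for sdc-2, 0.77 (-0.90 to 2.43, adjusted p = 0.565) for dpy-26, and -0.30 (-0.83 to 0.23, adjusted p = 0.471) for dpy-27. It was -0.07 (-0.79 to 0.64, adjusted p = 0.906) for dpy-30. The gene values of sdc-2 in the aging and young adults did not overlap, and neither did those of dpy-27, with the opposite sign. With 2 arrays against 3 this says little, and no share over all genes is given. On sdc-2 173447_s_at alone the scaled values overlapped, at 1.766 and 1.556 in aging adults and 1.434, 1.563 and 1.085 in young adults. The sign of dpy-27 came with the probe set below noise: 188603_s_at alone gave 0.55 ± 0.22 (SE, adjusted p = 0.184) in the fit of single probe sets, where 7.42% of all probe sets were called.

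The dimmer members had intervals too wide to place them in this comparison. The log2 fold change was 2.66 (95% confidence interval -0.95 to 6.27) for sdc-1, 3.16 (-0.64 to 6.97) for dpy-21, -0.99 (-5.0 to 3.03) for dpy-28 and 0.36 (-2.50 to 3.21) for xol-1, with floored values in each. Without young adult replicate 3, dpy-21 passed at 4.97 (adjusted p = 0.00337, limma), and without aging adult replicate 1, sdc-1 passed at 5.47 (adjusted p = 0.0112), with the remaining aging adult array assumed to vary like the other groups and all adult values below noise. For xol-1, sdc-1 and her-1 both adult groups were below noise and no direction is read. Without rescaling, sdc-2 alone passed, at 1.17 (adjusted p = 0.0361), while the median of all genes was 0.74 and 2723 genes were called higher against 326 lower.

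**Figure D3:**
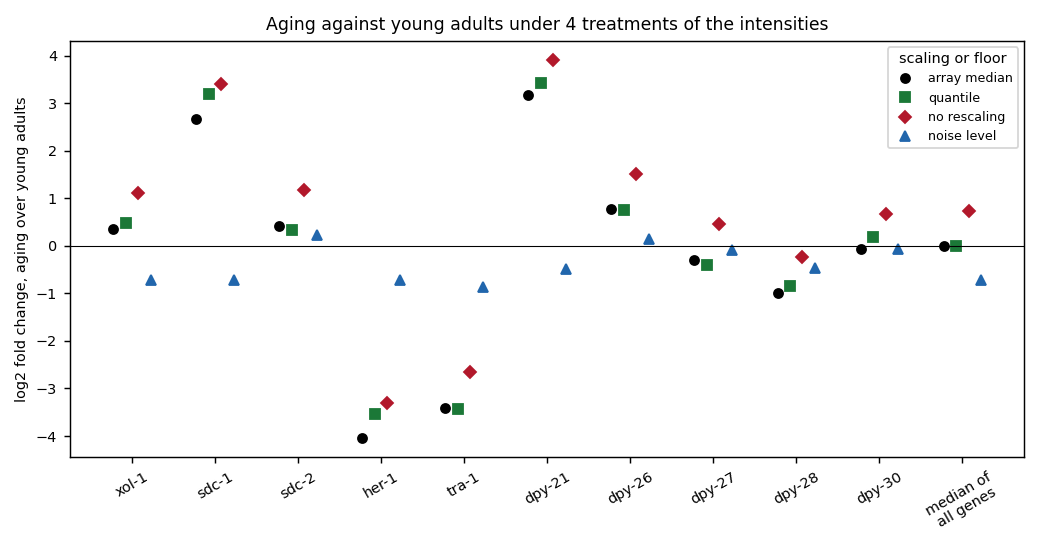
Log2 fold change of the 10 genes in aging against young adults under 4 treatments of the intensities (array median scaling, quantile normalization, no rescaling, and values raised to the noise level), with the median of all genes at the right. The values of sdc-2 and dpy-26 are above 0 in all 4, whereas those of dpy-27 and dpy-30 change sign with the scaling.

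Other genes of the same pathways, counted from lists written with earlier results of these data known, were also mostly higher in embryos. A list of sdc-3 and other condensin genes held mix-1 and capg-1, whose products are shared with the dosage compensation condensin, and smc-4, capg-2, hcp-6 and kle-2, which belong to the mitotic condensins. Of these 7 genes 7 were higher than in young adults (22.5% of all genes were) and 6 higher than in aging adults (17.8% of all), with 0 lower in either. The condensin subunit gene hcp-6 read 740, 901 and 622 in embryos and below 0 on all 5 adult arrays, at least 8.01-fold higher than in young adults (adjusted p = 0.000382, limma). The levels of the condensin genes capg-2, kle-2 and smc-4 were at least 8.86-fold (adjusted p = 0.0295), 10.1-fold (adjusted p = 0.000674) and 8.22-fold (adjusted p = 3.10e-05) higher than in young adults. In aging against young adults 0 of the 7 passed.

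Of 6 signal elements that act on xol-1, 5 were measured and 4 were higher in embryos in each comparison, beside the same 22.5% and 17.8% of all genes. The nuclear receptor gene sex-1, an X signal element, read 1788, 2316 and 1414 in embryos, 27.2, 20.4 and 17.9 in young adults, and 45.4 and 65.3 in aging adults, a 28.3-fold difference from young adults (adjusted p = 4.36e-05, limma). With young adult values at noise that fold was 19.3. The T-box gene sea-1, an autosomal signal element, was at least 8.07-fold higher in embryos than in young adults (adjusted p = 4.32e-05), the RNA-binding protein gene fox-1 at least 4.06-fold (adjusted p = 0.00460) and the homeobox gene ceh-39 at least 3.72-fold (adjusted p = 0.00125). None of the 5 passed in aging against young adults.

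The genes between her-1 and tra-1, and those that regulate them in the germ line, were split. Of 14 measured, 7 (beside 22.5% of all genes) were higher and 2 (beside 31.2%) lower in embryos than in young adults. Against aging adults 7 (beside 17.8%) were higher and 2 (beside 27.1%) lower. Both comparisons called 6 of the higher genes and both of the lower ones. The germ line regulators fog-2, at least 2.15-fold higher than in young adults (adjusted p = 5.50e-05, limma), and gld-1, at least 6.65-fold (adjusted p = 0.00305), were below noise in all adults, as was fem-3, which promotes male fate, at least 1.73-fold (adjusted p = 6.41e-05). The zinc finger gene tra-4 was 4.44-fold higher than in young adults (adjusted p = 0.000287), or 3.92-fold with young adult values at noise, and 2.94-fold higher than in aging adults (adjusted p = 0.0030). The 2 lower genes, singled out after their values were seen, were the calpain protease gene tra-3, at -1.12 ± 0.21 (SE, adjusted p = 0.00340), and fem-1, at -0.65 ± 0.16 (adjusted p = 0.0140). These are changes relative to the array median. In deposited units fem-1 was instead higher in embryos than in young adults, at 228, 258 and 203 against 94.0, 136 and 141, and the groups of tra-3 overlapped. In aging against young adults 1 of the 14 was called higher (beside 2.74% of all genes), fem-3, but it was below noise in both adult groups.

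Of 3 measured outputs of the pathway, 1 was higher in embryos in each comparison, beside 22.5% and 17.8% of all genes, namely the cell death activator egl-1, which read 108, 115 and 83.8 in embryos and 2.40 to 8.12 in adults. With adult values raised to noise, egl-1 was only 1.10-fold higher than in young adults and 1.82-fold higher than in aging adults. It was also called lower in aging than in young adults (adjusted p = 0.0372, limma), as were 4.44% of all genes, but every adult value of egl-1 was below noise. Of 6 measured partners of DPY-30 in COMPASS and enzymes that methylate histone H4, 6 were higher in embryos in each comparison, against the 22.5% and 17.8% of all genes, and 0 passed between the adult ages. The H3 methyltransferase gene set-2 was 9.86-fold higher than in young adults (adjusted p = 4.36e-05) and 7.33-fold with dim values at noise. The H4 methyltransferase gene set-1 was 7.39-fold higher (adjusted p = 9.40e-05), cfp-1 5.14-fold (adjusted p = 9.07e-05) and 2.93-fold with dim values at noise, and wdr-5.1 4.67-fold (adjusted p = 8.47e-05). The estimate for dpy-30 in the same comparison and scale was 1.39-fold and did not pass.

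**Figure D4:**
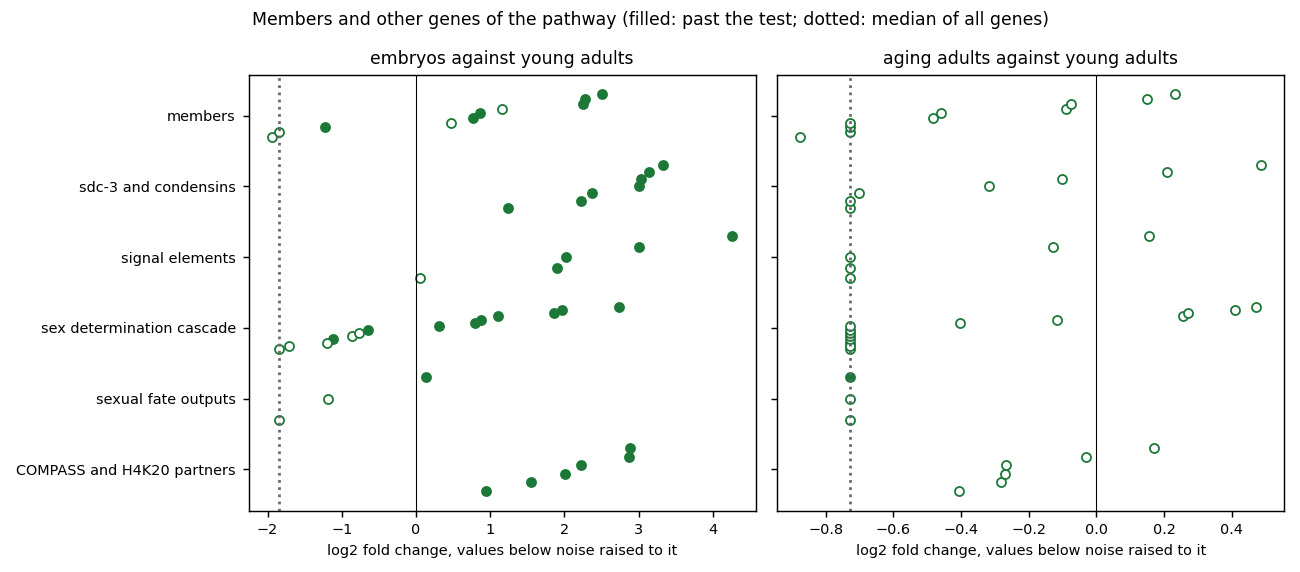
Log2 fold changes with values below noise raised to it, for the 10 genes (members) and 5 lists of related genes, in embryos against young adults and in aging against young adults; each point is a gene, filled where the fit without that raising passed the test, and the dotted line is the median of all genes. Points stacked on the dotted line are genes below noise in both groups.

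The target of dosage compensation is the X chromosome, so X-linked and autosomal transcripts were compared on each array over 1513 X-linked and 8490 autosomal genes whose mean intensity was above 29.2, the mean noise level. The median log2 intensity of X-linked genes minus that of autosomal genes was -0.30, -0.37 and -0.26 in embryos, 0.15, 0.29 and 0.13 in young adults, and 0.26 and 0.15 in aging adults. Embryos were below 0 and all adults above it. Of X-linked genes 26.7% were called higher and 45.3% lower in embryos than in young adults, beside 34.6% and 36.5% of autosomal genes. In aging against young adults the shares were 4.10% and 6.48% on X and 3.58% and 6.80% on autosomes. These are descriptions of different genes on each side, and whether they move with the members was not tested.

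**Figure D5:**
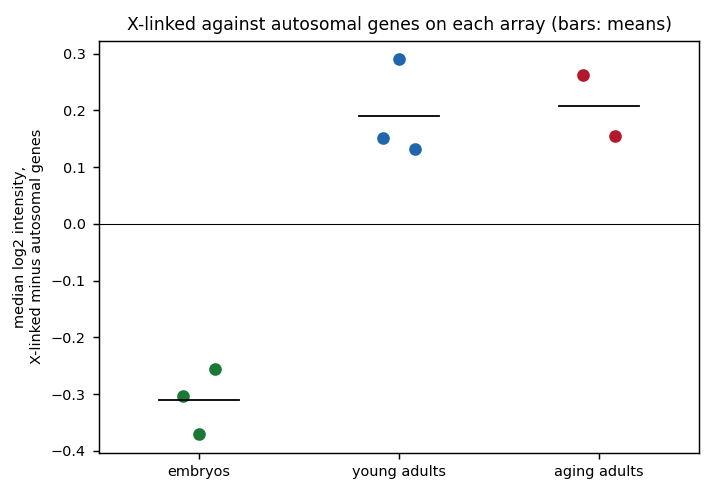
Median log2 intensity of 1513 X-linked genes minus that of 8490 autosomal genes on each of the 8 arrays (points) with group means (bars), after values below noise were raised to it. The 3 embryo arrays lie between -0.37 and -0.26 and the 5 adult arrays between 0.13 and 0.29.

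Across the 8 arrays the members with no floored value were set beside all other genes. Among 10821 genes above noise on at least 3 arrays, the highest Pearson correlations of log2 values with sdc-2 were those of sti-1 and melo-1 (both 0.997). With dpy-26 they were those of K09A11.1 (0.996) and atl-1 (0.994), with dpy-27 those of pigu-1 and F56D1.1 (both 0.993), and with dpy-30 those of sftb-6 (0.985) and mdt-31 (0.976). Among the members, sdc-2 correlated with dpy-27 at 0.948 and with dpy-26 at 0.880, and dpy-26 with dpy-30 at 0.292. These values share 8 arrays in 3 groups and are descriptions only.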

How the data were processed

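RNA from 8 pools was hybridised to Affymetrix arrays, which the authors scanned, read in GCOS and loaded into Rosetta Resolver. The intensity values were deposited on a linear scale after background subtraction, with negative values kept. A further deposited table of the authors' own comparisons (fold changes and p-values) was not used. Probe sets were named through the GEO platform annotation: 20766 had 1 gene, 887 several and 895 none, and only the first were used for genes. Values under 0.01 were set to 0.01, divided by the array median and log2-transformed, and a gene took the median of its probe sets. This floor turns small negative intensities into large negative log2 values, and probe sets ending in _s_at or _x_at can read other transcripts. A single limma model (version 3.58.1, R 4.3.3) of the 8 arrays used a variance trend and no covariate, and p was adjusted over all 17118 genes by the Benjamini-Hochberg method at 0.05. The method was tested on simulated data. For every fold given as "at least", values below noise were raised to the noise level of their array, and the fold was taken between means of median-scaled log2 values. The adjusted p printed with it is that of the main fit, without the raising.

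The 10 genes, the lists and the tests were chosen with earlier results of these data known. All 10 genes are named, with up to 4 of each list (the largest absolute log2 fold changes past the test in embryos against young adults) and, for each member above noise on 1 array, its most correlated genes, given here for 4 members. The alternatives were quantile normalization, no rescaling, a floor of 0.1 after scaling, noise-level values, a noise filter that left 11277 genes, a fit of the 2 groups compared, a replicate block, the highest probe set, _s_at and _x_at probe sets left out, no variance trend, and each array left out. The fit of single probe sets was chosen after seeing the data. The number of arrays limits the precision.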

Additional observations from a re-analysis of the deposited data

How the results depend on the processing

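Of 531 values of single genes under an alternative or a left-out array, 442 kept both direction and side of the threshold, 33 lost the threshold, 33 gained it and 23 changed sign. The count of the 10 genes higher in embryos ranged over left-out arrays from 5 to 8 against young adults and from 3 to 9 against aging adults, and the count lower from 0 to 1 and 0 to 0. Over the 10 other settings the higher counts ranged from 4 to 8 and from 5 to 8. The share of all genes called higher ranged from 18.8% to 38.7% and from 15.3% to 26.5% over the same settings. In aging against young adults both counts ranged from 0 to 1 over left-out arrays. Over the 10 other settings the count higher there ranged from 0 to 1 and the count lower from 0 to 4. Among all genes these shares ranged from 1% to 15.9% and from 1.5% to 60.1%. With no rescaling 1 gene was higher in aging adults. In embryos against young adults 1 was lower with a floor of 0.1 after scaling, with only the 2 groups compared and with the highest probe set, and against aging adults 1 with the highest probe set. With values raised to the noise level 3, 3 and 4 genes were lower in the 3 comparisons. For a gene below noise in both groups this follows by construction, since the noise level is the largest share of the median in young adults and the smallest in embryos. The estimate of tra-1, also among them, was already below 0 in the main fit against young adults (-1.91 in embryos and -3.40 in aging adults). With this raising 67.3%, 63.8% and 60.1% of all genes were called lower. That setting changed the sign of xol-1 (-1.23, -0.50 and -0.73), her-1 (-1.85 and -1.12 in embryos), tra-1 (-1.07 in embryos against aging adults), and sdc-1 (-0.73) and dpy-21 (-0.48) between adults. The sign of tra-1 in embryos against aging adults also changed with a floor of 0.1 (-0.59) and the highest probe set (-1.88), and against young adults without _s_at and _x_at probe sets (2.15). In aging against young adults, signs changed for dpy-30 under quantile normalization (0.18) and no rescaling (0.67), for dpy-27 with no rescaling (0.45) and the highest probe set (0.55), for dpy-28 with the highest probe set (0.56) and for xol-1 without _s_at and _x_at probe sets (-2.79). Over left-out arrays the log2 fold change there ranged from -0.00305 to 0.86 for xol-1, -0.15 to 5.47 for sdc-1, -3.18 to 1.20 for dpy-28 and -0.22 to 0.21 for dpy-30, and for tra-1 in embryos against aging adults from -1.68 to 4.66. The causes of the other changes were not tested.

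With 1 aging adult array left out, the other was assumed to vary like the other groups. Leaving out 1 array ended calls in embryos against aging adults for dpy-26 (embryo replicates 1 to 3, young adult replicate 1, or either aging adult array) and dpy-28 (embryo replicates 1 to 3, young adult replicate 1 or aging adult replicate 2). It made calls for dpy-28 in embryos against young adults (young adult replicate 3 or either aging adult array) and for dpy-21 in embryos against aging adults (young adult replicate 3, adjusted p = 0.0106, limma). No value was obtained for her-1 under the noise filter or for dpy-26 and dpy-27 without _s_at and _x_at probe sets.

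The labels do not say whether replicate numbers pair the arrays. Deviations of the 7 same-numbered pairs correlated at -0.018 to 0.028 over 10821 genes, so no shared deviation was seen. These values cannot show whether same-numbered pools shared a culture or a day. The deviations of the 2 aging adult arrays also mirror each other, so the pairs are not independent. With the replicate block 7 of the 10 passed as higher in embryos against young adults (21.1% of all genes did) and 5 against aging adults (15.5% of all genes). Between the adult ages 0 changed, beside 1% higher and 1.97% lower among all genes.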
